A study of Mus musculus with 2 samples.

Results

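This report describes 32 mouse genes of glycolysis and the hypoxia response in tumour cells and in the other cells of J558 allografts. The genes were named by symbol and read from the 2 count matrices, in which they took 33 of 32285 rows. *Aldoa* stands on 2 rows, of which ENSMUSG00000114515 held 7 UMIs in vehicle and 1 in TAK-931, and the values given are those of ENSMUSG00000030695. The list held 23 glycolysis genes, that is glucose transporters, the enzymes from hexokinase to lactate dehydrogenase, the 6-phosphofructo-2-kinases and the monocarboxylate transporters. It also held 8 hypoxia targets with other functions and *Hif1a*, and all 32 carried at least 1 UMI in each library.

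J558 is a mouse plasmacytoma line, a tumour of antibody-secreting plasma cells, grown here as an allograft in female BALB/c mice that still had their own stromal, vascular and immune cells. One library came from 1 allograft of a mouse dosed by mouth for 6 days with vehicle (0.5% methylcellulose) and the other from 1 allograft of a mouse dosed once a day with TAK-931 at 60 mg/kg, an inhibitor of the replication kinase CDC7. The animals were 4 weeks old. With 1 library per group no test between groups was possible, no p-value is given, and every interval covers counting error only.

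Glycolysis splits glucose to pyruvate in the cytoplasm, and lactate dehydrogenase with the monocarboxylate transporters disposes of pyruvate as lactate. When oxygen is low, the prolyl hydroxylases stop marking the transcription factor subunit HIF-1α for destruction, and HIF-1 then binds short motifs near many glycolysis genes and raises their transcription. Most steps are served by several isozymes that differ between tissues, and HIF-1α itself is set mainly by protein stability, so *Hif1a* mRNA does not measure HIF activity.

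The vehicle library held 144767193 UMIs (each a tag that counts 1 captured transcript) over 4565 barcodes, and the TAK-931 library held 77369283 UMIs over 6558 barcodes. Cells with over 2000 genes and under 15% mitochondrial UMIs numbered 3441 and 3488, and 8 barcodes occurred in both libraries. Fixed marker lists gated 3016 vehicle and 119 TAK-931 tumour cells, 184 and 1866 macrophages (monocytes included), 12 and 640 T cells, 79 and 181 endothelial cells, and 40 and 82 stromal cells, and 109 and 595 kept cells matched no gate. All defining markers of each gate were detected in it, and immunoglobulin genes took 10.9% of vehicle and 11.4% of TAK-931 tumour-cell UMIs. Median depth was 42428 and 75045 UMIs in tumour cells against 11697.5 and 15122 in macrophages, so levels were compared as CPM, a gene's UMIs summed over a gate and scaled to a common total. The 3′ chemistry tags each transcript once whatever its length, so CPM is a level per transcript, and it cannot tell splice forms such as those of *Pkm* apart.

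The core of the hypoxia-response element, the letters ACGTG or GCGTG on either strand, was searched in the 250 bases before the transcription start in RefSeq windows of build GRCm38.p6. A window was given for 30 of the 32 genes, all but *Slc2a3* and *Ndrg1*. The core occurred in 27 of those 30 (90%) against 41.5% of 27025 mouse genes with a window, and it was not found in these windows of *Gpi1*, *Tpi1* and *Eno2*. A gene counted where any of its windows held the core. The 2 shares were matched neither for the number of windows nor for base content, and the list was chosen in part for hypoxia targets. A match is a description of letters and not a binding site. The following stretches belong to genes whose levels differed between cell classes or libraries below, with the core in capitals. CACGTG reads as ACGTG on both strands and so counts as 2 overlapping matches.
*Ldha* (chr7:46845684-46845803, plus strand, bases 120 to 1 before a RefSeq start within the annotated gene): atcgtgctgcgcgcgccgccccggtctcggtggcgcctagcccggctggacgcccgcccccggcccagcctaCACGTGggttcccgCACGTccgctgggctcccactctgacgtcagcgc
*Slc2a1* (chr4:119108591-119108710, plus strand, bases 154 to 35 before the start): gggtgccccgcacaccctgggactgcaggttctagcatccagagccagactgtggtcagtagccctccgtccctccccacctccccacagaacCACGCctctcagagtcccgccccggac
*Slc16a3* (chr11:120948933-120949052, plus strand, bases 134 to 15 before a start): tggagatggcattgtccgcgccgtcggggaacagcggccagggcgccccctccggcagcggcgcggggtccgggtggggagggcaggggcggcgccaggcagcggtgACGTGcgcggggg
*Pfkl* (chr10:78009808-78009927, minus strand, bases 120 to 1 before a start): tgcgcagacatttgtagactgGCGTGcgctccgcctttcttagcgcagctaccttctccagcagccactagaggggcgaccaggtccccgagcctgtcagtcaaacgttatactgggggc
*Tpi1* (chr6:124814297-124814408, minus strand, bases 250 to 139 before the start, with no core): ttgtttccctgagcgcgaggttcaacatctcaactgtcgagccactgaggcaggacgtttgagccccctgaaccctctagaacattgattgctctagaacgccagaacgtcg
The *Ldha* stretch held 3 matches, *Slc2a1*, *Slc16a3* and *Pfkl* held 1 each, and *Tpi1* held none. Over whole windows the largest number was 5, in *Ldha* and *Bnip3*, and the map of core positions shows them spread over the window.

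**Figure D1:**
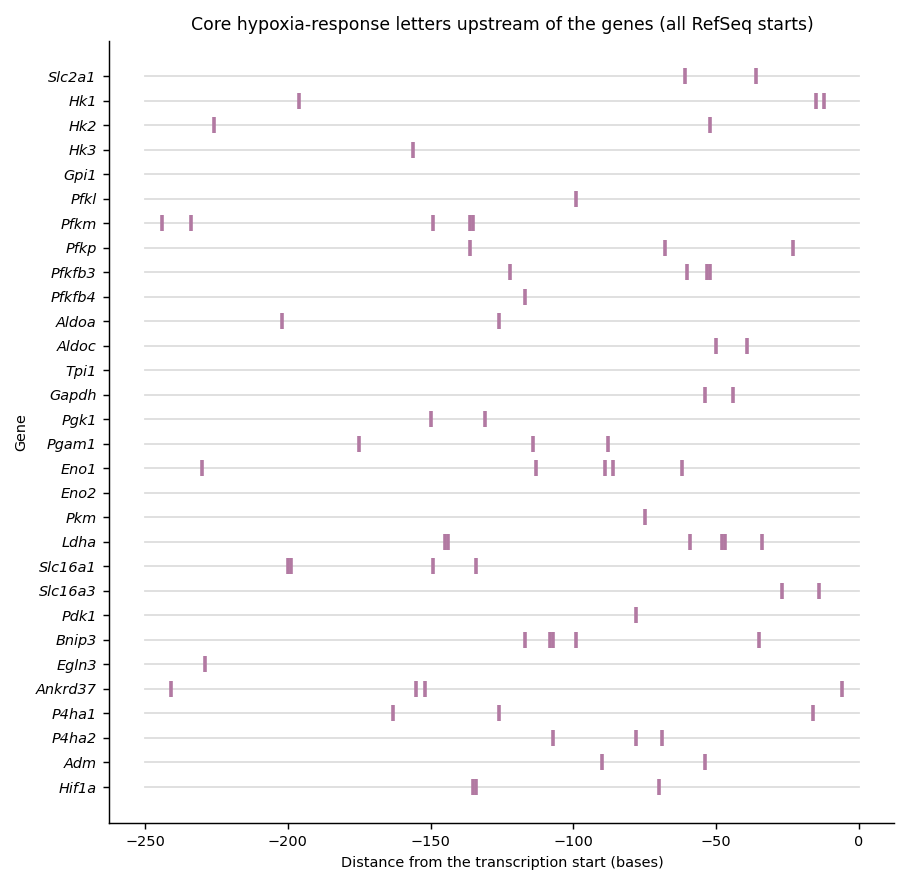
Positions of the hypoxia-response core (vertical ticks) in the 250 bases before each RefSeq transcription start, for the 30 genes with a window. The x axis is distance from the start in bases, genes with several starts have all of them overlaid, and the lines of Gpi1, Tpi1 and Eno2 carry no tick.

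The glucose transporters were split by cell class. *Slc2a1* (GLUT1, the widely used basal transporter) was at 23.1 CPM (95% interval 22.3 to 23.9) in vehicle tumour cells, 38.7 in macrophages, 57.9 in endothelial and 53.4 in stromal cells. In TAK-931 cells *Slc2a1* was at 25 CPM in tumour cells, 51.5 in macrophages, 25.1 in T cells, 28.5 in endothelial and 38.5 in stromal cells. *Slc2a3* (GLUT3, a high-affinity transporter) was at 44.6 CPM (40.9 to 48.6) in TAK-931 T cells and between 1.88 and 5.95 CPM in the other 4 TAK-931 classes. Its interval in T cells lay above those of the other classes, and in vehicle the 12 T cells gave 7 *Slc2a3* UMIs.

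Hexokinases, which trap glucose as glucose-6-phosphate, differed by isozyme between the classes. *Hk2*, the inducible form on the mitochondrial surface, was at 20.8 CPM in vehicle tumour cells, 71.7 in macrophages and 105 in stromal cells, and 0 of 1468867 endothelial UMIs were *Hk2*. Tumour cells thus held at least 10.2-fold more *Hk2* than endothelial cells, against a floor of 3 counts over the gate (2.04 CPM). *Hk1*, the constitutive form, was at 7.04 CPM in vehicle tumour cells against 15.6 in macrophages, 34.0 in stromal, 51.3 in T and 59.9 in endothelial cells, although 1 T cell gave 45.5% of its class's *Hk1* UMIs.

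*Hk3*, the hexokinase of myeloid cells, was at 27.6 CPM (21.4 to 35.0) in vehicle macrophages and 61.2 CPM (58.6 to 64.0) in TAK-931 macrophages. Outside macrophages it was at 0.0823 CPM in vehicle tumour cells, at 0 UMIs in the other 3 vehicle classes, and between 0.834 and 5.95 CPM in TAK-931 cells. After thinning every cell to 5000 UMIs, *Hk3* was detected in 23.2% of TAK-931 macrophages (50.6% unthinned) and, as the background in cells that should lack it, in 2 of 119 tumour cells (1.68%, 5.88% unthinned). *Gpi1*, the next enzyme, was at 57.5 CPM in vehicle tumour cells and 66.6 in TAK-931 tumour cells, and between 145 and 238 CPM in every other class of both libraries.

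Phosphofructokinase commits sugar phosphate to glycolysis, and its 3 isozymes were used in unlike amounts. In vehicle tumour cells *Pfkp* (platelet type) was at 124 CPM, *Pfkl* (liver type) at 13.8 and *Pfkm* (muscle type) at 9.50. Vehicle macrophages held 38.7, 23.1 and 1.24 CPM of the same isozymes, and endothelial cells 66.7, 62.6 and 3.40. *Pfkp* lay above *Pfkl* beyond counting error in vehicle tumour cells and macrophages, whereas their intervals overlapped in T, endothelial and stromal cells (in the last at 36.9 and 48.5 CPM). The bifunctional enzymes that set the activator fructose-2,6-bisphosphate were low in tumour cells. *Pfkfb3* was at 2.12 CPM in vehicle tumour cells, 37.5 in macrophages and 44.9 in endothelial cells. *Pfkfb4* was at 0.516, 10.3 and 0 CPM in those classes and at 19.4 CPM in stromal cells.

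The later enzymes were abundant everywhere. In vehicle tumour cells *Gapdh* stood at 1039.5 CPM, *Pkm* (pyruvate kinase) at 490.3, *Ldha* at 468, *Aldoa* at 342, *Pgam1* (phosphoglycerate mutase) at 273, *Pgk1* (phosphoglycerate kinase) at 263, *Eno1* at 251 and *Tpi1* (triosephosphate isomerase) at 135. In vehicle macrophages the same 8 genes were at 1008, 506, 409, 302, 240.5, 185, 159 and 191 CPM, none of them 2-fold apart from tumour cells. Among the members, the minor isozymes *Aldoc* and *Eno2* were scarce in the tumour cells, at 1.2 and 0.0150 CPM, the latter being 2 of 133629266 UMIs. Isozymes outside the list, such as *Eno3* and *Pgam2*, were not all scarce and are given below. *Eno2* (the neuronal enolase) was at 25.2 CPM in vehicle stromal cells and 16.7 CPM in TAK-931 stromal cells. Several of these genes, *Gapdh*, *Eno1*, *Pgk1* and *Ldha* among them, have near-identical processed copies in the mouse genome, so their counts are uncertain where reads were shared. The *Eno1* retrocopy *Eno1b* was counted at 5.64 CPM in vehicle tumour cells.

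The 2 lactate carriers had unlike patterns. *Slc16a1* (MCT1, a carrier that works in both directions) was at 28.8 CPM in vehicle tumour cells, 11.5 in macrophages, 10.2 in endothelial and 24.3 in stromal cells. *Slc16a3* (MCT4, the exporter of strongly glycolytic cells) was at 0.202 CPM in tumour cells, 26.8 in macrophages, 18.6 in T, 38.1 in endothelial and 41.7 in stromal cells. Each of the 4 other classes was above the tumour cells for *Slc16a3* in both libraries, and the counting intervals did not overlap.

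**Figure D2:**
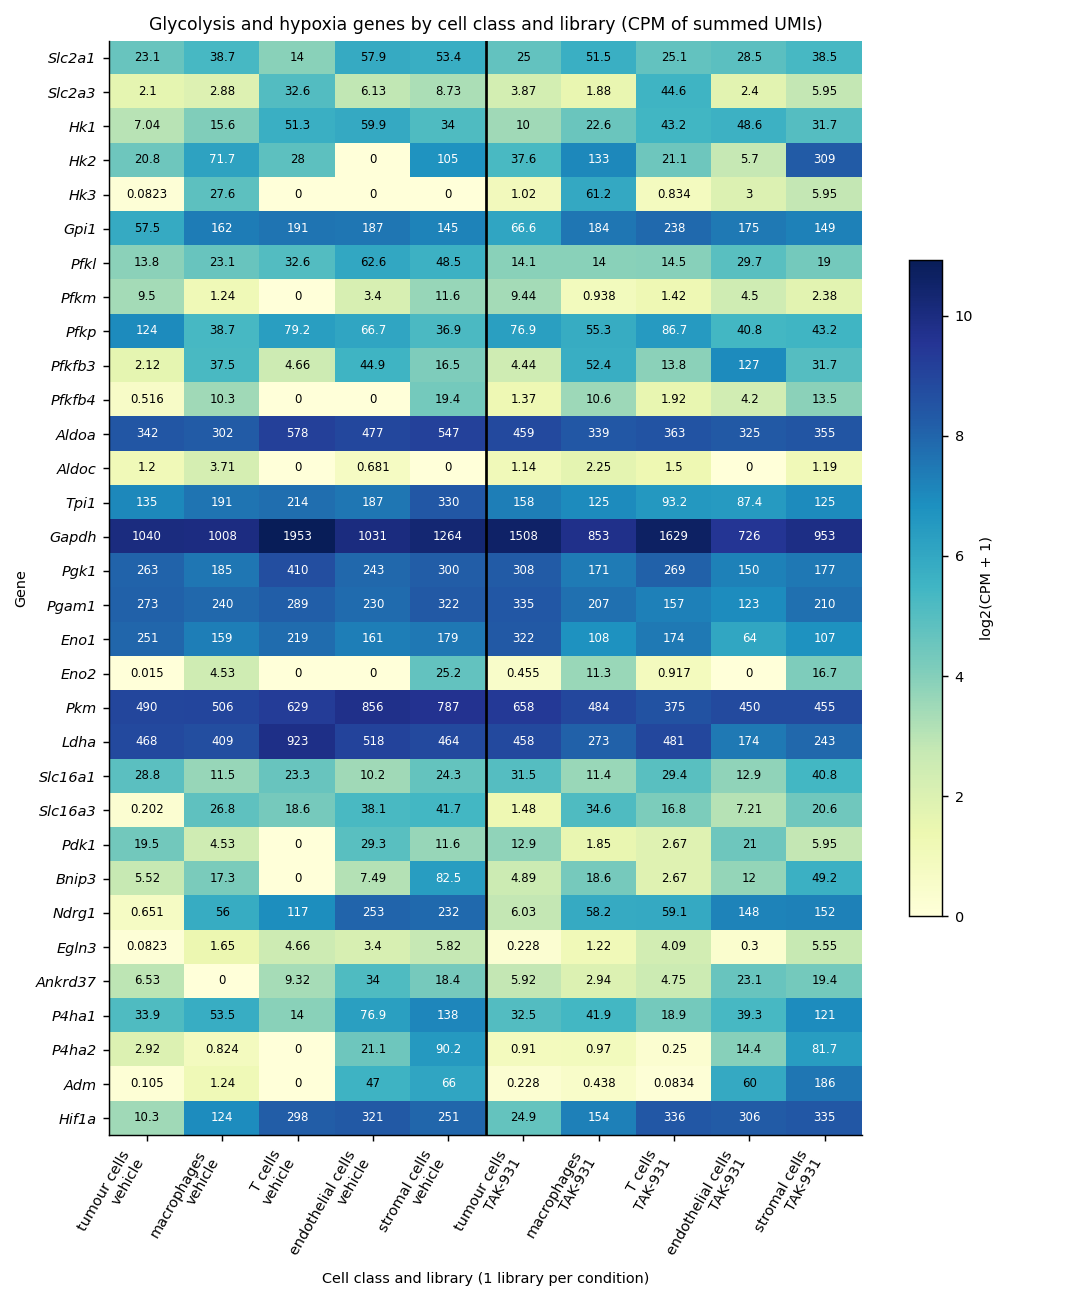
CPM of the 32 genes (rows) in 5 cell classes of the vehicle library (left of the line) and the TAK-931 library (right), printed in each cell and coloured by log2(CPM + 1). Gapdh, Pkm, Ldha and Aldoa are high in every column, whereas Hif1a, Ndrg1 and Slc16a3 are lowest in the tumour-cell column of each library and Hk3 is high in macrophages.

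Hypoxia targets outside glycolysis were mostly low in tumour cells. *Ndrg1*, a differentiation and stress gene, was at 0.651 CPM (0.521 to 0.803) in vehicle tumour cells against 56.0 in macrophages, 117 in T, 253 in endothelial and 232 in stromal cells. *Adm*, the vasodilator peptide adrenomedullin, was at 0.105 CPM in tumour cells, 47.0 in endothelial and 66.0 in stromal cells. The mitophagy receptor *Bnip3* was at 5.52 CPM in tumour cells and 82.5 CPM in stromal cells, and 1 stromal cell gave 30.6% of the latter. The collagen prolyl hydroxylases *P4ha1* and *P4ha2* were at 33.9 and 2.92 CPM in tumour cells and at 138 and 90.2 CPM in stromal cells, the collagen makers.

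*Pdk1*, which shuts pyruvate out of the mitochondrial dehydrogenase, was at 19.5 CPM in vehicle tumour cells against 4.53 in macrophages, 11.6 in stromal and 29.3 in endothelial cells. *Ankrd37* (an ankyrin-repeat protein) was at 6.53 CPM in tumour cells, 34.0 in endothelial cells and 0 of 2428367 macrophage UMIs. *Egln3*, the prolyl hydroxylase that is itself a HIF target, was at 0.0823 CPM in vehicle tumour cells and no more than 5.82 CPM in any class of either library.

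*Hif1a*, which encodes the regulated subunit of HIF-1, was lowest in tumour cells in both libraries. It was at 10.3 CPM (9.76 to 10.9) in vehicle tumour cells, 124 in macrophages, 251 in stromal cells (222 to 284), 298 in T cells (230.1 to 380.9) and 321 in endothelial cells (292 to 351). The tumour cells were lowest and macrophages next, and the T cells overlapped both of their neighbours. In TAK-931 the levels were 24.9 CPM in tumour cells, 154 in macrophages, 306 in endothelial, 335 in stromal and 336 in T cells, with the interval of stromal cells overlapping those of endothelial and T cells. At 5000 UMIs a cell, *Hif1a* was detected in 4.48% of vehicle tumour cells (32.4% unthinned), 45.1% of macrophages (65.8% unthinned) and 78.5% of endothelial cells (98.7% unthinned).

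Members were then counted past 2-fold between classes of a library, among those with at least 10 UMIs expected in the shallower class. The expected UMIs use the mean of both classes. A gene present in only 1 class could thus be read through that class, and could then be called only on its side. The shares over all genes carry the same limit. Against vehicle macrophages 25 of 32 members could be read, of which 4 were higher in tumour cells, where 25.1% of 9364 genes were, and 10 lower, where 27.3% of genes were. The lowest log2 ratios were those of *Hk3* (−8.39, counting interval −9.46 to −7.46), *Slc16a3* (−7.05) and *Ndrg1* (−6.43). The highest were *Pfkm* (2.94, 1.39 to 5.22, on 3 macrophage UMIs), *Pdk1* (2.11) and *Pfkp* (1.68). Against TAK-931 macrophages 29 could be read and 6 were higher and 12 lower, with 30.4% and 26.5% of all genes called. There *Hk3* (−5.90), *Eno2* (−4.63) and *Slc16a3* (−4.55) were lowest and *Pfkm* (3.33), *Pdk1* (2.80) and *Eno1* (1.57) highest. With at least 50 expected UMIs, 15 vehicle members could be read, 1 higher (21.3% of 5174 genes) and 4 lower (27.8%), so the share called lower lay near the background under that minimum.

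Against vehicle stromal cells 27 members could be read, 1 (*Pfkp*, log2 1.75) was higher, against 24.3% of all genes, and 16 were lower, against 30.7%. *Eno2* (−10.72 on 2 tumour UMIs, −13.84 to −8.72), *Adm* (−9.30) and *Ndrg1* (−8.48) were lowest, and after *Pfkp* the highest were *Pdk1* (0.74) and *Eno1* (0.49). The median over the readable members was −1.33, and over all genes tested −0.03. In TAK-931 29 could be read, 3 were higher (24.0% of all genes) and 14 lower (31.6%), with *Adm* (−9.67, on 2 tumour UMIs), *P4ha2* (−6.49) and *Eno2* (−5.19) lowest and *Pfkm* (1.99), *Eno1* (1.59) and *Pdk1* (1.11) highest.

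Against endothelial cells 24 vehicle members could be read, 2 were higher (19.7% of all genes) and 12 lower (33.9%). The 3 lowest were *Adm* (−8.81), *Ndrg1* (−8.60) and *Slc16a3* (−7.56), and *Slc16a1* (1.5) and *Hk2* were the 2 higher, with *Pfkp* (0.90) next. *Hk2* had no vehicle endothelial UMI and was read through the tumour cells alone. In TAK-931 27 could be read, 8 were higher (22.9%) and 11 lower (30.6%), and *Hk2* (2.72), *Eno1* (2.33) and *Pgam1* (1.44) were highest whereas *Adm* (−8.04), *Pfkfb3* (−4.84) and *Ndrg1* (−4.61) were lowest. *Ldha* (1.40), *Gapdh* (1.06) and *Pgk1* (1.04) were also past 2-fold there, and none of them was in vehicle.

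Against T cells only 12 vehicle members could be read at the depth of 12 cells, 0 were higher (16.4% of 2815 genes) and 3 lower (23.8%). These 3 were *Ndrg1* (−7.48, with 60% of the T-cell UMIs from 1 cell), *Hif1a* (−4.86) and *Gpi1* (−1.73), and *Pfkp* (0.65), *Eno1* (0.20) and *Pgam1* (−0.08) were highest. The 640 TAK-931 T cells allowed 28, of which 3 were higher (21.2%) and 8 lower (24.2%). *Egln3* (−4.17, on 2 tumour UMIs), *Hif1a* (−3.75) and *Slc2a3* (−3.53) were lowest there, and *Pfkm* (2.74), *Pdk1* (2.27) and *Pgam1* (1.10) highest.

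Other genes of the pathway were read from lists that held no member. Of 23 further hypoxia genes 19 could be read in vehicle tumour cells against macrophages, 3 higher and 9 lower, beside 25.1% and 27.3% of all genes. *Ero1l* (an oxidase of disulfide formation, 28.4 CPM in macrophages and 211 in tumour cells), *Mif* (a cytokine, 366 and 1070.1) and *Fam162a* (56.0 and 143) were the 3 highest, and *Bhlhe40* (128 and 0.599), *Anxa2* (183 and 1.06) and *Plod1* (74.1 and 2.99) the lowest. Of 18 further glycolysis genes 8 could be read, 5 higher and 2 lower. *Pgam2* (20.5 CPM in tumour cells, 0.412 in macrophages) and *Eno3* (60.0 and 9.06), known as muscle isozymes, were the highest, and *Ldhb*, the heart-type lactate dehydrogenase, was at 0.195 CPM in tumour cells against 29.2, the second of the lower ones after *Slc16a7*, a pyruvate carrier (0.00748 and 9.88). Of 7 genes that control HIF, 5 could be read, with *Hif1an* (the asparagine hydroxylase) higher (log2 1.21) and *Vhl* (−1.04) and *Egln2* (−1.05) lower. Of 15 genes for pyruvate entry to mitochondria and the pentose phosphate route, 12 could be read, 2 higher, led by *Mpc1* (a pyruvate carrier subunit, 1.63), and 3 lower, with *G6pdx* (−1.60) lowest.

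TAK-931 against vehicle was then read within the gates of tumour cells, macrophages, endothelial cells and stromal cells, to describe how the genes differed between the libraries. No such comparison was made for T cells, of which vehicle held 12. In tumour cells 26 of 32 could be read. Of these 3 were 2-fold higher, where 9.07% of 10932 genes were, and 1 was 2-fold lower, where 2.35% were. *Ndrg1* was at 0.651 CPM in vehicle and 6.03 in TAK-931 (log2 3.21, 2.69 to 3.72), *Hif1a* at 10.3 and 24.9 (1.28, 1.06 to 1.48), and *Pfkfb3* at 2.12 and 4.44 (1.07, 0.55 to 1.55). *P4ha2* was at 2.92 and 0.910 CPM (−1.68, −2.90 to −0.69), the lowest, followed by *Pfkp* at 124 and 76.9 (−0.69) and *Pdk1* at 19.5 and 12.9 (−0.60).

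The 3 higher members are among the genes lowest in tumour cells and high in other classes, T-cell and macrophage markers were also higher, and the median depth of the TAK-931 tumour cells was 75045 against 42428 UMIs. The 8 T-cell markers summed to 12.9 CPM in vehicle and 219 in TAK-931 tumour cells, the 10 macrophage markers to 19.8 and 205, and the 8 endothelial markers to 62.1 and 58.6, with all of these markers detected in both. One cell gave 34.0% of the TAK-931 *Ndrg1* UMIs. The gate was also set to a second-lineage score under 0.1 of the tumour score instead of 0.5, a choice made after seeing the data. This left 86 TAK-931 and 2987 vehicle tumour cells. T-cell markers were then at 12.5 CPM in vehicle and 31.1 in TAK-931. Macrophage markers were at 15.3 and 114 CPM, so both lists stayed higher in TAK-931. In these cells *Hif1a* was at 10.1 CPM in vehicle and 11.6 in TAK-931 (log2 0.20), *Ndrg1* at 0.574 and 0.966 (0.75) and *Pfkfb3* at 2.09 and 3.06 (0.55), and 0 members were 2-fold higher. *P4ha2* was at −1.58 there, *Pfkp* at −0.67, *Hk2* at 0.96 and *Gapdh* at 0.52. The part of the marker and depth differences in the values of the members was not tested.

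The abundant enzymes of the tumour cells differed less, but beyond counting error. *Gapdh* was at 1039.5 CPM in vehicle and 1508 in TAK-931 (log2 0.54, 0.51 to 0.56), *Aldoa* at 342 and 459 (0.43), *Pkm* at 490.3 and 658 (0.42) and *Eno1* at 251 and 322 (0.36). *Hk2* was at 20.8 and 37.6 (0.85, 0.69 to 1.02). *Ldha* was at 468 and 458 (−0.03, −0.08 to 0.01), so no difference was detectable. Of the 19 readable glycolysis members 15 were above 0, as were 54.1% of all genes, and their median was 0.23 against 0.05. The 6 that could not be read were *Hk3*, *Pfkfb4*, *Eno2*, *Slc16a3*, *Egln3* and *Adm*, each at no more than 1.48 CPM.

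In macrophages 24 members could be read and 2 were 2-fold higher, against 4.41% of 8843 genes, and 0 lower, against 6.93%. *Eno2* was at 4.53 CPM in vehicle and 11.3 in TAK-931 (log2 1.32, 0.46 to 2.33), *Hk3* at 27.6 and 61.2 (1.15, 0.80 to 1.52) and *Hk2* at 71.7 and 133 (0.89, 0.67 to 1.11). All 3 hexokinases lay above 0, since *Hk1* was at 15.6 and 22.6 CPM (0.53, 0.06 to 1.04). The lowest were *Pfkl* at 23.1 and 14.0 CPM (−0.72), *Tpi1* at 191 and 125 (−0.61) and *Ldha* at 409 and 273 (−0.58, −0.68 to −0.49). Other genes of the macrophage gate differed as well. The 10 macrophage markers summed to 18742 CPM in vehicle and 18652 in TAK-931, and the 8 tumour markers to 1058 and 356, with all detected in both. The 8 T-cell markers summed to 19.8 (5 detected) and 46.8 (8 detected). The 8 stromal markers summed to 9.47 (5 detected) and 48.6 (8 detected), and the 8 endothelial markers to 58.5 (6 detected) and 75.7 (8 detected). The summed UMIs of the complement genes *C1qa*, *C1qb* and *C1qc* averaged 124 a cell in vehicle and 73.7 in TAK-931 at 10000 UMIs, and those of the monocyte gene *Ly6c2* 0.726 and 8.30, while 7 of 10 division genes were 2-fold lower in TAK-931. The part of these differences in the values of the members was not tested.

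In endothelial cells 24 members could be read and 6 were 2-fold lower, against 9.53% of 8823 genes, and 1 higher, against 5.74%. *Slc16a3* was at 38.1 CPM in vehicle and 7.21 in TAK-931 (log2 −2.40, −3.16 to −1.69), *Ldha* at 518 and 174 (−1.57, −1.73 to −1.42) and *Eno1* at 161 and 64.0 (−1.34, −1.61 to −1.06). *Tpi1* (−1.09), *Pfkl* (−1.08) and *Slc2a1* (−1.02) were the others past 2-fold. *Pfkfb3* lay on the other side of 0, at 44.9 and 127 CPM (1.5, 1.12 to 1.90), followed by *Bnip3* (0.68, on 11 vehicle UMIs, of which 1 cell gave 63.6%) and *Adm* (0.35). Of the 16 readable glycolysis members 14 were below 0, as were 62.2% of all genes, with medians of −0.81 and −0.18. Scaled by that median of all genes, 3 rather than 6 members stayed past 2-fold lower, *Slc16a3*, *Ldha* and *Eno1*.

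Markers of the endothelial gate differed as well. The 8 endothelial markers summed to 7425 CPM in vehicle and 5238 in TAK-931, with 8 detected in both. The 8 tumour markers summed to 905 and 231 CPM (7 detected in both), the 8 stromal markers to 5.45 (4 detected) and 82.9 (7 detected), and the 10 macrophage markers to 335 (9 detected) and 411 (10 detected). Of 9 readable division genes 2 were 2-fold higher. The part of these differences in the values of the members was not tested. *Hk2* was at 0 UMIs in vehicle and 19 in TAK-931 endothelial cells, too few to be read.

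In stromal cells 26 members could be read, 3 were 2-fold lower (6.26% of 7844 genes) and 2 higher (9.80%). *Tpi1* was at 330 CPM in vehicle and 125 in TAK-931 (log2 −1.40, −1.63 to −1.18), *Pfkl* at 48.5 and 19.0 (−1.35) and *Slc16a3* at 41.7 and 20.6 (−1.02). Under a stricter gate, with more markers asked for and a lower score of the next class, *Pfkl* (−0.63) and *Slc16a3* (−0.68) no longer passed 2-fold. *Hk2* was at 105 and 309 CPM (1.56, 1.27 to 1.86), *Adm* at 66.0 and 186 (1.49, 1.13 to 1.88) and *Pfkfb3* at 16.5 and 31.7 (0.94, 0.18 to 1.79). *Hk2* was detected in 11 of 40 vehicle stromal cells (27.5%) and 50 of 82 TAK-931 stromal cells (61.0%) after thinning to 5000 UMIs, and in 77.5% and 85.4% unthinned. Single cells weighed on this class, with 28.4% of TAK-931 *Gapdh* UMIs and 29.7% of *Eno1* UMIs from 1 cell, and the mean of each cell's own CPM put 7 members past 2-fold lower, where 6.90% of all genes were. Of 19 readable glycolysis members 14 were below 0, as were 52.9% of all genes, with medians of −0.60 and −0.05. Other genes of the stromal gate differed as well. The 8 stromal markers summed to 25764 CPM in vehicle and 42777 in TAK-931, with 8 detected in both. The macrophage markers summed to 233 CPM in vehicle and 574 in TAK-931, with 10 of 10 detected in both, the endothelial markers to 69.9 (6 of 8 detected) and 181 (8 of 8), and the tumour markers to 1213 (8 of 8) and 469 (7 of 8). Of 10 division genes 5 were 2-fold higher and 1 lower in TAK-931. The part of these differences in the values of the members was not tested.

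**Figure D3:**
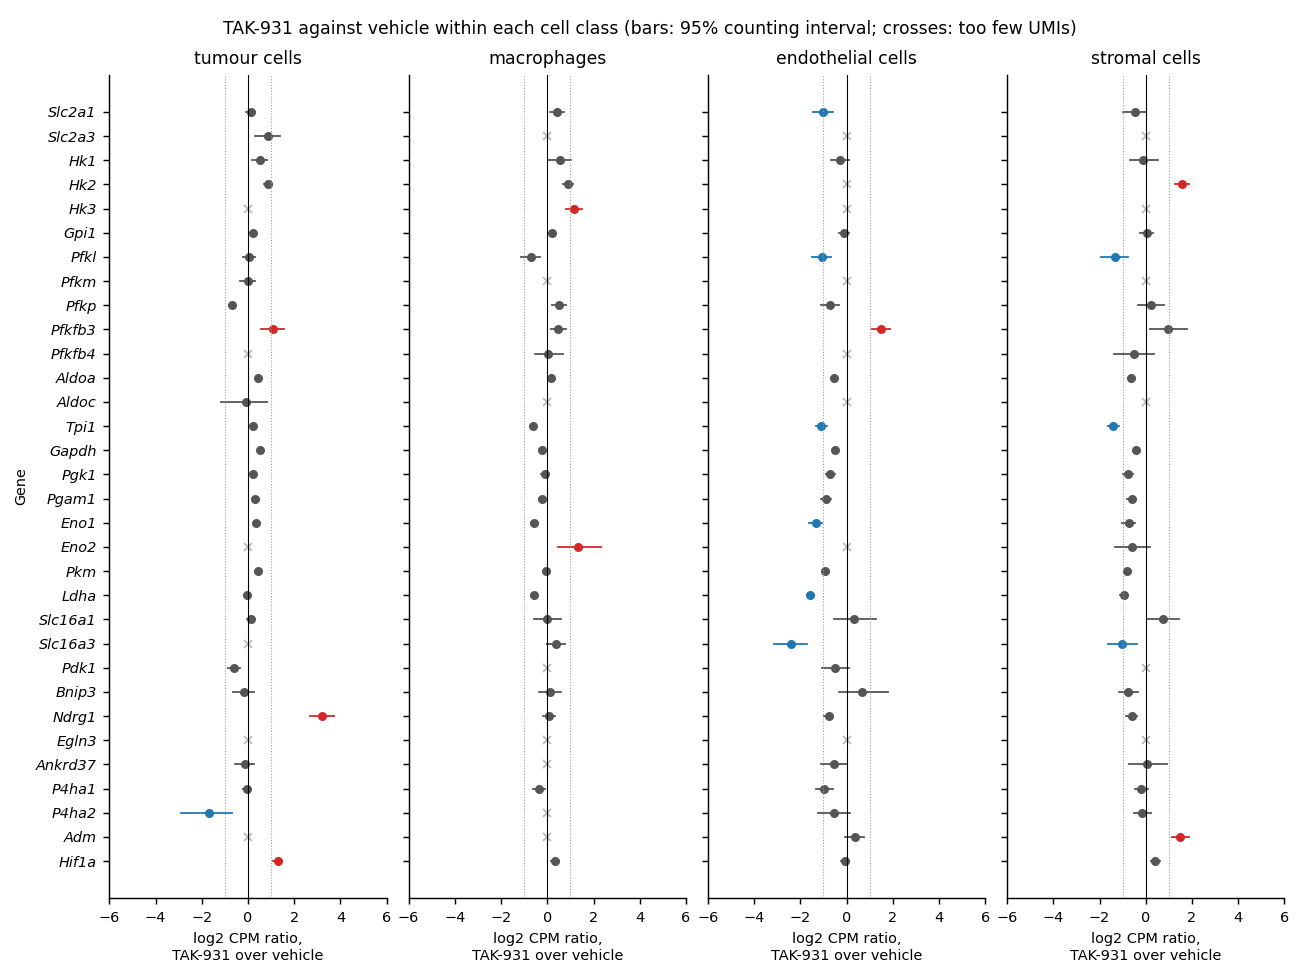
log2 ratio of CPM in TAK-931 over vehicle for each gene (rows) within tumour cells, macrophages, endothelial cells and stromal cells, with 95% counting intervals as bars and dotted lines at 2-fold. Red marks at least 2-fold higher, blue at least 2-fold lower, and grey crosses genes with too few UMIs. Endothelial cells carry 6 blue points and stromal cells 3, while Gapdh, Aldoa, Pkm and Eno1 lie above 0 in tumour cells and below 0 in endothelial and stromal cells.

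Of the 23 other hypoxia genes, 4 of 21 readable in tumour cells were higher, led by *Rora* (0.135 and 15.2 CPM), *Anxa2* (1.06 and 45.9) and *Bhlhe40* (0.599 and 22.9), and 3 were lower, beside 9.07% and 2.35% of all genes. In TAK-931 T cells these 3 higher genes were at 276, 479 and 311 CPM. In macrophages 1 of 20 was higher and 5 lower (4.41% and 6.93% of all genes), with *Ddit4* (32.9 and 10.4) lowest, and *Vegfa*, the angiogenic factor, was at 92.7 and 185 CPM. In endothelial cells 2 of 20 were higher and 4 lower (5.74% and 9.53% of all genes). In stromal cells 3 of 21 were higher, among them *Vegfa* (58.2 and 151), and 1 was lower, beside 9.80% and 6.26% of all genes. Of the 7 HIF controllers, *Epas1*, which encodes HIF-2α, was higher in tumour cells (0.180 and 6.60 CPM) and macrophages (2.47 and 5.85), and stood at 302 and 445 CPM in endothelial cells. Of the 18 other glycolysis genes, 0 of 8 readable passed 2-fold in tumour cells, 1 of 7 was higher and 2 lower in macrophages, 2 of 2 were lower in endothelial cells (*Bpgm* and *Adpgk*), and 0 of 3 passed in stromal cells. Of the 15 genes of pyruvate entry and the pentose phosphate route 0 passed in tumour cells, macrophages or stromal cells, and 1 was higher (*Pdk4*, 2.04 and 14.1 CPM) and 1 lower (*Pdk3*) in endothelial cells.

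Summed over all kept cells, 14 members were at least 2-fold higher in TAK-931 (36.2% of 16181 genes) and 2 lower (18.7%). *Hk3* (log2 5.63), *Eno2* (4.40) and *Slc16a3* (3.79) were highest, and *Pdk1* (−2.0), *Pfkm* (−1.94) and *Pfkp* (−0.80) lowest. Tumour cells gave 94.7% of vehicle UMIs and 12.7% of TAK-931 UMIs, and macrophages 1.72% and 46.1%. Vehicle levels were therefore set at the TAK-931 shares of the classes and of the ungated cells. T cells took 17.3% of TAK-931 UMIs and cells outside the classes 15.4%. Their vehicle levels came from 12 T cells and chiefly from 109 ungated cells. Immunoglobulin genes took 3.39% of vehicle and 0.191% of TAK-931 ungated UMIs, so the ungated cells were not alike. The values from shares are uncertain to that extent. *Hif1a* was measured at 19.8 and 191 CPM (3.27), and the shares alone gave 157 CPM (2.98). *Slc16a3* was at 1.91 and 26.5 CPM (3.79), and the shares alone gave 3.65. *Hk2* was at 22.7 and 96.1 CPM (2.08), of which the shares gave 1.24. *Ldha* (−0.48 measured, 0.17 from shares), *Tpi1* (−0.23 and 0.46) and *Pfkl* (0.02 and 0.88) lay below the value from shares.

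**Figure D4:**
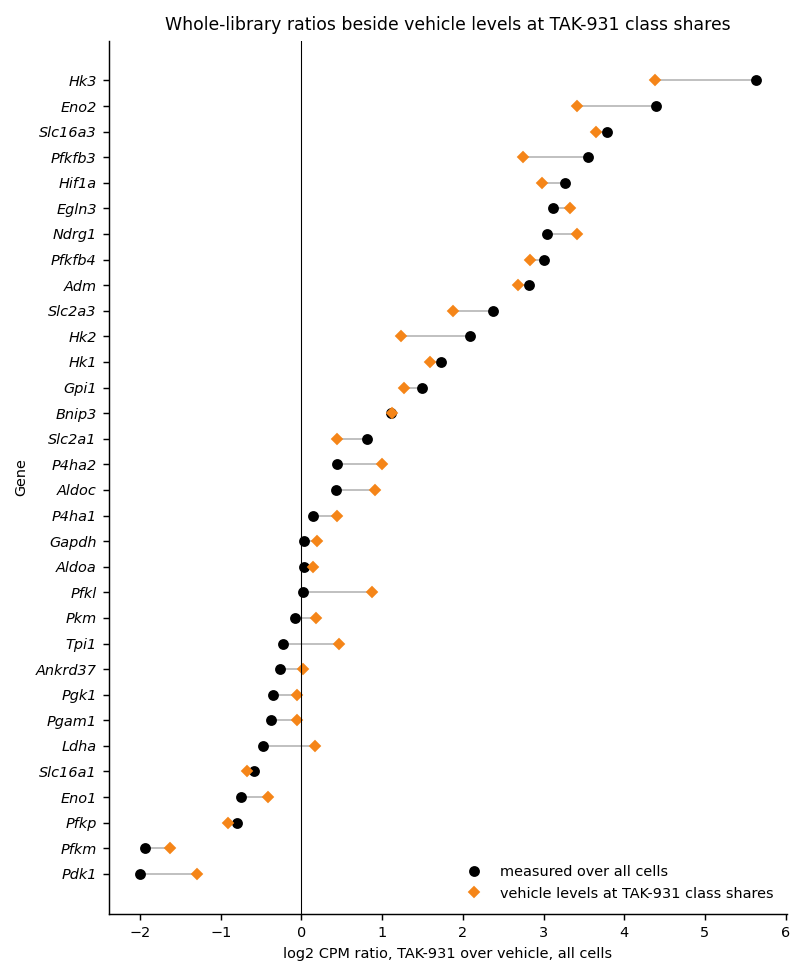
log2 CPM ratio of TAK-931 over vehicle across all kept cells (black circles) and the ratio given by vehicle levels at the TAK-931 UMI shares of the cell classes (orange diamonds), genes ordered by the measured ratio. For Hif1a the markers stand at 3.27 and 2.98, whereas Hk2, Hk3, Eno2 and Pfkfb3 lie to the right of their diamonds and Ldha, Tpi1 and Pfkl to the left.

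The spread among the vehicle tumour cells was measured after thinning to 20000 UMIs a cell, which left 2852 cells and dropped 164. Variance over mean is 1 for counting alone. Of 21 members with a mean of at least 0.1 UMI, 7 reached 1.5, against 10.6% of 8137 genes. Variance over mean grows with a gene's mean level, and these 7 were among the abundant members. *Gapdh* was at 3.15 with a median of 19 UMIs and 5% to 95% of cells between 9 and 34, *Aldoa* at 2.02, *Pkm* at 1.95, *Ldha* at 1.95, *Eno1* at 1.76, *Pfkp* at 1.58 and *Tpi1* at 1.55. *Pgk1* (1.30) and *Pgam1* (1.34), with similar means, stayed under 1.5. On a scale that takes the mean into account, the variance beyond counting divided by the squared mean, the median member was at 0.156 and the median gene at 0.181, an order that turned at 10000 UMIs (0.181 and 0.164).

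Members were then set along the hypoxia targets. Cells were ranked by the mean log level of the 8 targets, and the highest 10% (285 cells) were compared with the lowest 50% (1426 cells) for genes outside the 8. The ranking of tumour cells rested on 3.87 target UMIs a cell in the upper group and 0.424 in the lower. Only *Hk1* of 17 readable members was at least 1.5-fold higher (log2 0.60, 54 and 178 UMIs), against 0.467% of 8133 genes. The call was not kept at 10000 UMIs, where *Hk1* (0.25) was under the mean of 0.1 UMI and 2 of 15 other members passed, *Hif1a* (0.85) and *Hk2* (0.68), against 0.524% of all genes. At a mitochondrial limit of 10% 0 of 17 passed, against 0.578%. Of the 2852 cells 821 had no target UMI and tied at the lowest rank, so a comparison of the highest and lowest 25% (0 of 17 members) drew its lower group from among ties. The median of the 17 was 0.09 against 0.06 for all genes. *Hif1a* (0.33), *Slc16a1* (0.32) and *Tpi1* (0.19) followed, and *Ldha* was at 0.09, *Gapdh* at 0.02 and *Pfkl* at −0.04. Division genes of G2 and M phase averaged 20.3 UMIs a cell in the upper and 18.6 in the lower group.

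TAK-931 macrophages were read in the same way, which was added after seeing the data. Thinned to 10000 UMIs (1616 cells, 250 too shallow), 16 of 23 members reached a variance over mean of 1.5, against 20.7% of 6692 genes. At the same depth 3 of 17 readable members reached it in vehicle tumour cells, against 7.02% of 6486 genes. *Gapdh* was at 4.37 in the macrophages, *Pkm* at 3.39, *Hk2* at 2.95 and *Ndrg1* at 2.60. The variance beyond counting over the squared mean had a median of 0.864 over the readable members and 0.430 over all genes in these macrophages. The 113 vehicle macrophages deep enough gave 12 of 21 members at 1.5 or above, against 17.2% of 6832 genes, and medians of 0.301 and 0.236.

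Along the hypoxia targets 14 of 20 members outside the ranking were at least 1.5-fold higher in the highest 10% of TAK-931 macrophages (162 cells) than in the lowest 50% (808 cells), against 7.07% of 6689 genes. The count was 9 of 20 (5.68% of all genes) between the highest and lowest 25%, where the lower group again came from ties (648 of 1616 cells had no target UMI), and 9 of 17 (7.90%) at 5000 UMIs, both chosen after seeing the data. The rankings rested on different genes, mainly *P4ha1* (446 UMIs in the upper group) and *Pdk1* (312) in tumour cells and *Ndrg1* (451) in macrophages, so their counts cannot be compared between the classes. The median of the 20 was 0.73 and that of all genes 0.06. *Pfkl* (1.19, on 37 and 81 UMIs), *Slc16a3* (1.15), *Tpi1* (1.09) and *Slc2a1* (1.01) were highest, and *Hif1a* was at 0.98, *Pgk1* at 0.84, *Pkm* at 0.80, *Ldha* at 0.37 and *Gapdh* at 0.37. *Hk2* (−0.26) and *Pfkfb3* (−0.10) stood on the other side of 0. In vehicle macrophages the same ranking left 11 cells against 56, and 7 of 18 members were at least 1.5-fold higher, against 23.3% of 6829 genes, with a median of 0.44 against 0. *Eno1* (−0.84, on 11 and 100 UMIs), *Hk3* (−0.82, on 1 and 9 UMIs, against 0.65 in TAK-931), *Pgk1* (−0.19) and *Hk2* (−0.05) were below 0 there, and the difference between the libraries was not tested.

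The upper group of macrophages also differed in other genes. It held 45.2 summed *C1q* UMIs a cell against 82.0, 12.2 *Ly6c2* UMIs against 7.16, and 0.414 division-gene UMIs against 1.23. Median depth before thinning was 15084.5 and 16752 UMIs, and median mitochondrial shares were 4.71% and 5.26%. The part of these differences in the glycolysis values was not tested. Since cells of 1 library are not replicates, the comparisons describe these libraries only.

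**Figure D5:**
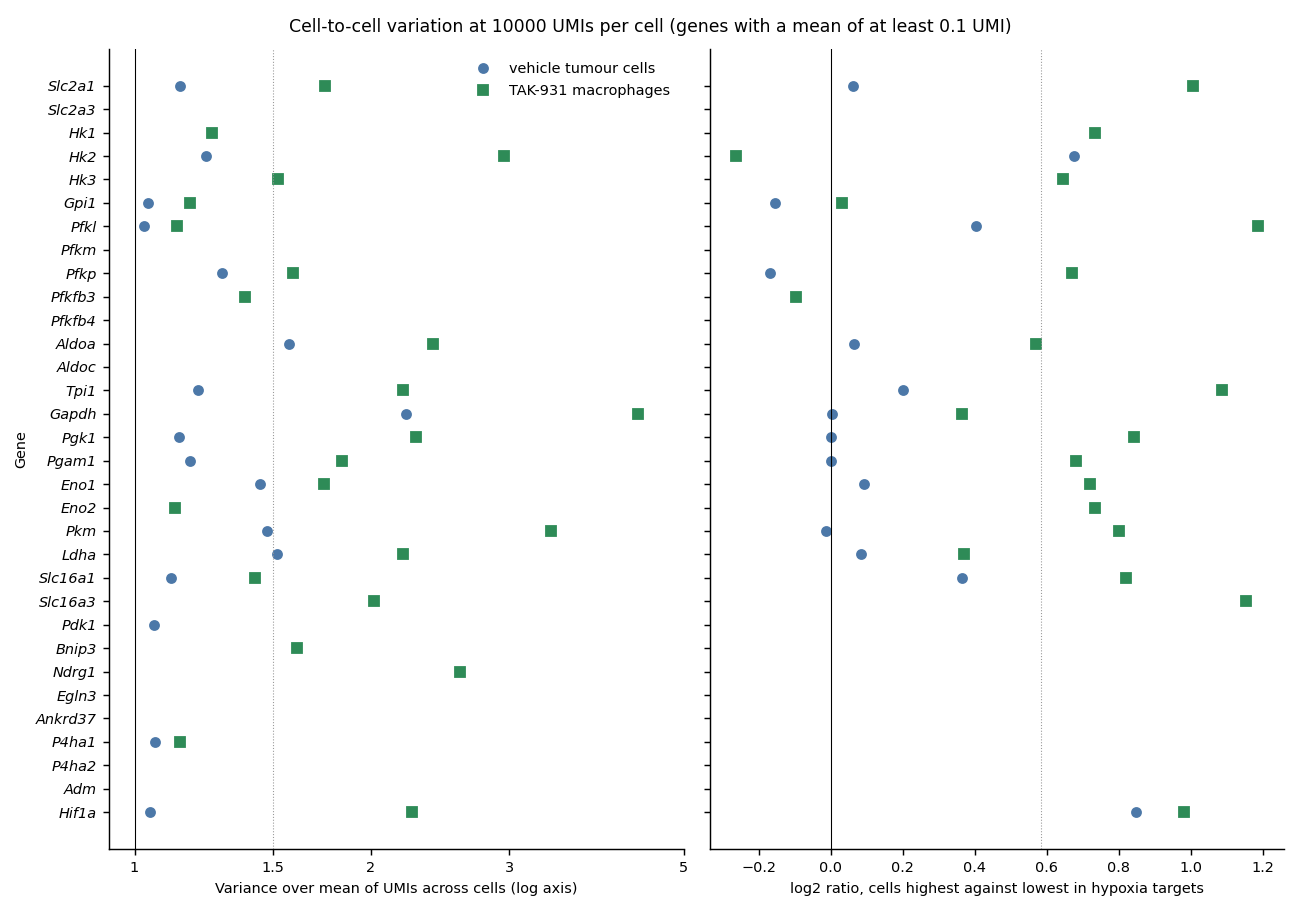
Left, variance over mean of UMI counts across cells (log axis, solid line at 1 for counting alone, dotted line at 1.5) for members with a mean of at least 0.1 UMI in vehicle tumour cells (blue circles) and TAK-931 macrophages (green squares), both thinned to 10000 UMIs. Right, log2 ratio between the cells highest and lowest in hypoxia targets for members outside the ranking, with dotted line at 1.5-fold. At this depth Hk2 and Hif1a pass the line among tumour cells and 14 members among macrophages, along rankings that rest on different genes. All 1488 tumour cells of the lower group were drawn from 1613 tied cells with no target UMI.

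Pairs of members were compared cell by cell as a description, for genes with a mean of at least 0.5 UMI. In 2852 vehicle tumour cells 28 of 66 member pairs had a Pearson r of at least 0.1, as did 2.21% of all gene pairs. *Gapdh* with *Pkm* (0.38), *Eno1* with *Gapdh* (0.36) and *Gapdh* with *Aldoa* (0.33) were highest, and *Gapdh* with *Pfkp* (−0.12) lowest. In 1616 TAK-931 macrophages, thinned to 10000 UMIs, 65 of 120 pairs reached it, against 6.16% of all pairs. *Gapdh* and *Aldoa* (0.55), *Gapdh* and *Pkm* (0.51) and *Tpi1* and *Gapdh* (0.51) were highest there and *Hk2* with *Pkm* (−0.09) lowest. At 10000 UMIs 21 of 45 pairs reached it in 2977 vehicle tumour cells, against 1.52% of all pairs, with the highest at 0.28. Cells were thinned to the same depth within each class but share a library, and abundant genes give larger r at equal covariation.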

How the data were processed

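The authors prepared droplet 3′ single-cell libraries from 1 vehicle and 1 TAK-931 allograft, and they deposited raw UMI counts per gene and cell. Cell Ranger 6.0.0 is named both in the labels and in the matrix files. The labels name build mm10, the features are mouse genes, and the annotation release is not given in the sources used here. Cells were kept at over 2000 genes and under 15% mitochondrial UMIs, the limits in the study's methods. A cell entered a gate where the mean log level of its best of 8 marker lists was at least 1, at least 4 markers were detected and the next list scored under 0.5 of it. No doublet caller was run. This last limit was used against mixed cells, and markers of other classes remained in the gates. The gate limits were set after seeing the scores, and the members and lists were chosen with earlier results of these data known.

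UMIs were summed per gate and scaled to CPM. Ratio intervals are exact conditional binomial, level intervals exact Poisson and share intervals Clopper-Pearson, all at 95%. PCR copies were already collapsed by the UMIs. Where 1 side was 0, 0.5 UMI was added, and a ratio was read only where the mean of both CPM values gave at least 10 UMIs in the shallower gate. The spread was read on cells thinned without replacement. All 32 members are accounted for, and values in full are given for the 3 highest and 3 lowest ratios of each comparison and for each set of isozymes. Positions and upstream sequence come from GENCODE M21 and RefSeq (GRCm38.p6), of which 32 and 30 members matched. Bases lying in an annotated exon were left out. The ratio calls and intervals were run on simulated counts with counting error only, so they were not tested on the larger spread of real cells. The variance over mean was run on simulated cells with a set spread. Tools were python 3.11.15, numpy 2.4.6, scipy 1.17.1, pandas 2.3.3 and matplotlib 3.10.9. Alternatives were looser and stricter cell filters and gates, other totals and scalings, the mean over cells, free RNA subtracted and other minimum counts.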

Additional observations from a re-analysis of the deposited data

Results flagged for a closer look

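With 1 library per group, no group was large enough to look for a sample apart from the rest. TAK-931 against vehicle lay on opposite sides of 0 in tumour and endothelial cells, each outside its counting interval, for 8 members, and the difference between the classes was not tested. Of all genes tested, 54.1% were above 0 in tumour cells and 62.2% below 0 in endothelial cells. The share of all genes under the same rule was not computed, so the count cannot be read as particular to the members. The log2 ratio in tumour cells minus that in endothelial cells was 1.70 for *Eno1* (0.36 and −1.34), 1.35 for *Pkm* (0.42 and −0.93), 1.32 for *Tpi1* (0.23 and −1.09) and 1.2 for *Pgam1* (0.29 and −0.90). It was 1.04 for *Gapdh* (0.54 and −0.51), 0.98 for *Aldoa* (0.43 and −0.55) and 0.93 for *Pgk1* (0.23 and −0.70). It was 3.98 for *Ndrg1* (3.21 and −0.77), whose tumour-cell value was 0.75 under the gate with a second-lineage score below 0.1.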

How the results depend on the processing

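With 1 library per group, neither a replicate could be left out nor a library named as deciding a value, and counting intervals do not cover the spread between mice. No paired analysis was possible because each group had 1 library. Of the alternatives of 147 member ratios past 2-fold, 1180 stayed within the counting error, 130 moved beyond it and 1 reversed, *Ankrd37* in vehicle tumour against stromal cells (−1.5, and 0.065 under the stricter gate). Of the alternatives of counts, 205 stayed within 1.5-fold and 41 did not, and apart from the gates, filters and totals themselves the cause was not tested.

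A minimum of 50 expected UMIs left fewer members to read, and each count is given of the readable members with the share of all genes under the same setting. Vehicle tumour cells had 1 higher (21.3%) and 4 lower (27.8%) of 15 against macrophages, 0 lower of 7 (21.5%) against T cells, 0 higher (19.7%) and 6 lower (32.3%) of 15 against endothelial cells, and 6 lower of 14 (27.7%) against stromal cells. TAK-931 tumour cells had 3 higher of 25 (27.6%) against macrophages, 7 lower of 21 (28.5%) against endothelial cells, and 1 higher (23.6%) and 9 lower (28.9%) of 20 against stromal cells. For TAK-931 against vehicle it gave 1 higher (4.20%) and 0 lower (1.33%) of 20 in tumour cells, 1 higher of 18 (2.83%) in macrophages and 1 lower of 16 (4.55%) in stromal cells. With no minimum, tumour against T cells had 4 higher (12.8%) and 13 lower (57.8%) of 32 in vehicle and 5 higher of 32 (26.5%) in TAK-931, and tumour against stromal cells 2 higher of 32 (17.6%) in vehicle. TAK-931 against vehicle then had 9 higher of 32 (31.5%) in tumour cells, 2 lower of 32 (24.0%) in macrophages, 4 higher of 31 (16.5%) in endothelial and 4 higher of 32 (21.8%) in stromal cells.

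Totals without immunoglobulin and mitochondrial genes gave 7 higher of 28 (25.3%) in TAK-931 tumour cells against T cells and 6 of 29 (28.7%) against stromal cells, and the mean of each cell's CPM gave 6 (23.0%) and 5 (23.5%). That mean also gave 2 higher of 24 (6.21%) in TAK-931 endothelial cells and 7 lower of 26 (6.90%) in TAK-931 stromal cells than in vehicle. A mitochondrial limit of 10% gave 5 higher of 26 (22.6%) in TAK-931 tumour against endothelial cells. Scaling by the median ratio gave 3 lower of 24 (6.81%) in TAK-931 endothelial cells and 4 lower of 32 (25%) over all cells. That median was past 0.1 for TAK-931 tumour cells against macrophages (0.21) and endothelial cells (−0.10), vehicle tumour cells against T (−0.14) and endothelial cells (−0.23), and TAK-931 against vehicle in endothelial (−0.18) and all cells (0.30). In TAK-931 against vehicle tumour cells 0 of 24 members were higher under the stricter gate (5.35%) and 0 of 24 under a second-lineage limit of 0.1 (3.64%), which was added after seeing the data. *Hif1a* was at 0.45, *Ndrg1* at 1.76 and *Pfkfb3* at 0.80 under the stricter gate, where *Ndrg1* fell short of the minimum count.

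In the spread of vehicle tumour cells 3 of 17 members passed at 10000 UMIs (7.02%) and 11 of 22 without thinning (32%). Along the hypoxia targets 2 of 15 passed at 10000 UMIs (0.524%), *Hif1a* and *Hk2* in place of *Hk1*, 2 of 17 without thinning (1.43%), 0 of 17 at the mitochondrial limit of 10% (0.578%) and 0 of 17 between the highest and lowest 25% (0.295%). For TAK-931 macrophages 9 of 17 passed at 5000 UMIs (7.90%) and 9 of 20 between the highest and lowest 25% (5.68%), both chosen after seeing the data.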
